A study of Mus musculus with 4 samples.

Results

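Innate-like T#2 cells are the smaller of the 2 groups of innate-like T cells in a paired single-nucleus RNA and ATAC data set of T cells from a mouse model of colorectal cancer. The cells were chosen by the cell type label deposited for each barcode, and 602 of 15621 labelled cells carried it, 165 of 7155 in the cecum library and 437 of 8466 in the tumor library. The labels came from clustering of the nuclear RNA, so the chromatin accessibility described here is a second readout of the same nuclei. Tumors were grown from AKP organoids, a line of mouse intestinal organoids that has lost Apc and Trp53, transplanted into the wall of the cecum. T cells were sorted 4 weeks later from the tumor and from the adjacent tumor-free cecum of the transplanted mice, so the cecum cells are not from tumor-free animals. Each tissue gave 1 ATAC library. The labels give no strain, sex, age or number of mice for these libraries, and differences between the tissues cannot be told apart from differences between the libraries. Intervals cover counting error only, and no value has a replicate behind it.

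Innate-like T cells are T cells that carry receptors and adaptors of natural killer (NK) cells. Among these is the Fc receptor gamma chain encoded by Fcer1g, which passes signals from activating receptors. Such cells populate the gut epithelium and some tumors, and many depend on interleukin 15 (IL-15), which signals through the IL-2 receptor beta chain. ATAC-seq cuts open chromatin with a transposase, so fragments gather at promoters and enhancers that proteins keep accessible. Accessibility is not transcription, and a gene can be open without being transcribed.

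The Innate-like T#2 cells held 1060823 fragments (cecum) and 3015432 fragments (tumor), with medians of 4210 and 5190 fragments per cell. Innate-like T#1, the larger group of 3239 cells, had medians of 3516 and 5243. In summed fragments, fewer cells with signal and less signal per cell cannot be told apart. Levels are given as fragments per 1000000 fragments of the label in that library (FPM), counted over the RefSeq span of a gene with 5 kb on each side. Windows of neighbouring genes can overlap and share fragments. No barcode was labelled Innate-like T#2 in both libraries, while 84 labelled barcodes occurred in both under any label. How many of those carried the Innate-like T#2 label in only 1 library was not counted. At the median cell, 49.0% of the fragments of Innate-like T#2 in the cecum and 48.2% in the tumor lay near gene starts, against 50.7% and 49.0% for Innate-like T#1.

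Innate-like T#2 made up 2.31% of the labelled cells of the cecum (exact binomial 95% interval 1.97 to 2.68%) and 5.16% of those of the tumor (4.70 to 5.66%). Of all Innate-like T#2 cells, 72.6% lay in the tumor library (68.8 to 76.1%), against 56.8% of Innate-like T#1 cells (55.1 to 58.6%) and 54.2% of all labelled cells. Among labelled cells outside the Treg and CD4 labels, the share was 4.04% (cecum) and 8.09% (tumor). The sort and the number of cells loaded can set such shares, and their part was not tested.

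Fcer1g (chr1:171229572-171234349 on mm10, Entrez gene 14127) was open in Innate-like T#2 at 32.1 FPM in cecum from 34 fragments and at 31.5 FPM in tumor from 95 fragments. The mean over the other labels was 12.7 and 14.5 FPM. CD8aa cells were highest and Innate-like T#1 stood above Innate-like T#2, at 34.7 and 37.1 FPM, and Fcer1g was not called between the 2 groups (log2 -0.11, -0.67 to 0.40, and -0.24, -0.57 to 0.08). Its window also covers parts of neighbouring genes, among them Apoa2. Tyrobp, the gene of the related adaptor DAP12, lay at 108 and 100.2 FPM, close to the mean of the other labels at 96.8 and 93.5 FPM.

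Il2rb, the shared beta chain of the IL-2 and IL-15 receptors, was more open in Innate-like T#2 than in any other label of either library, at 343 FPM in cecum and 351 FPM in tumor. Innate-like T#1 had 280 and 263 FPM. Trac, the constant region of the T cell receptor alpha chain, was also highest in Innate-like T#2, at 291 and 287 FPM. Trdc, the constant region of the delta chain, lay at 24.5 and 15.9 FPM, while Cytotoxic gdT cells had 77.8 and 68.0 FPM. The constant regions were looked up after other values had been seen, and their windows may share fragments with the rearranged segments around them.

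**Figure D1:**
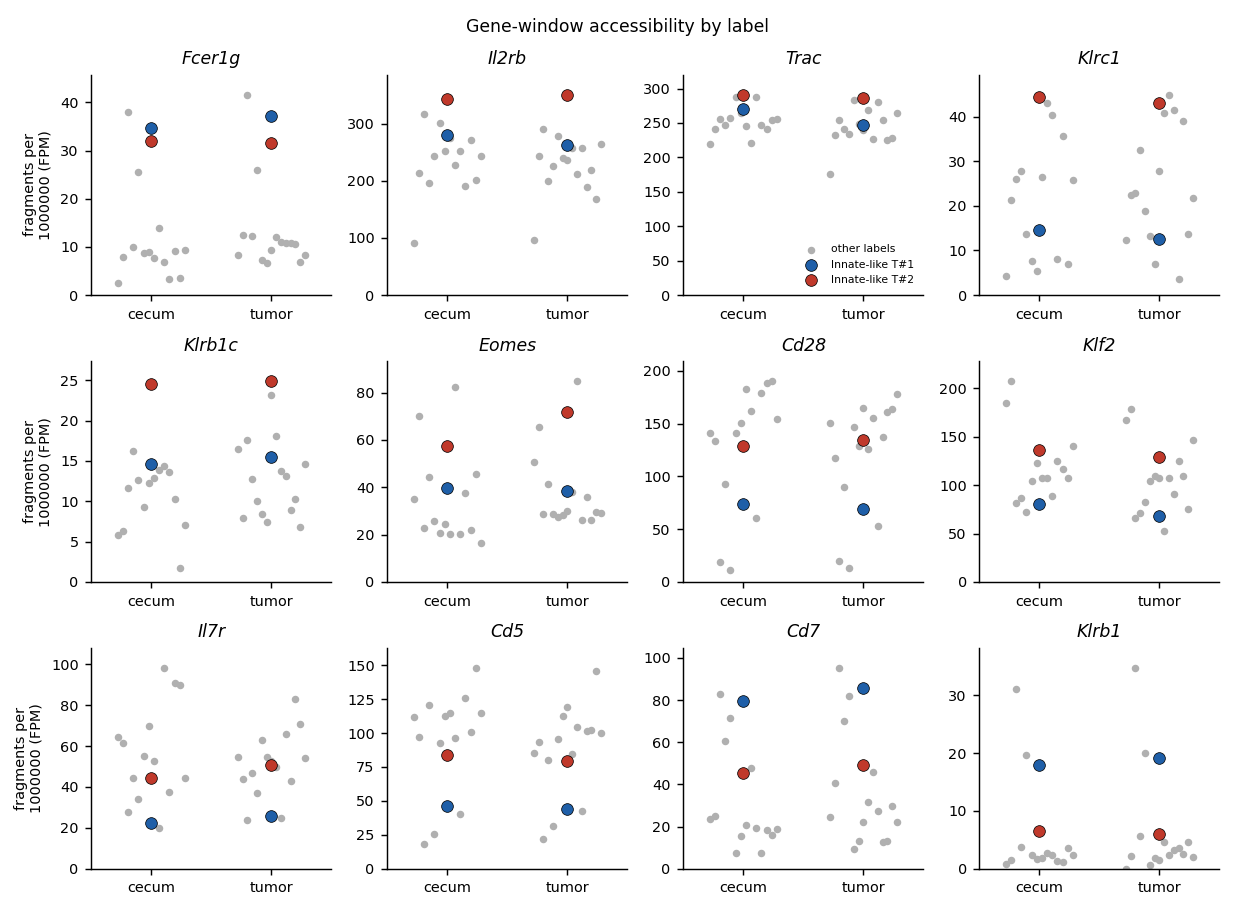
Accessibility of 12 gene windows in fragments per 1000000 (FPM) in cecum and tumor libraries, with 1 point per label of at least 50 cells (Innate-like T#2 in red, Innate-like T#1 in blue, other labels in grey) and no error bars because each point is 1 pooled sum. Fcer1g was similar in both innate-like groups, Klrc1, Cd28, Klf2, Il7r and Cd5 were higher in Innate-like T#2, and Cd7 and Klrb1 were higher in Innate-like T#1.

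Marker genes of other cell types were checked in the same windows. The 6 T cell markers summed to 606 FPM in cecum and 601 FPM in tumor, rank 12 and 13 among the labels. B cell markers summed to 180 and 207 FPM, within the range of 137 to 226 FPM in cecum and the highest of a range of 141 to 207 FPM in tumor. Epithelial markers summed to 148 and 170 FPM (range over labels 91.0 to 204 FPM and 105 to 207 FPM), and myeloid markers to 127 and 137 FPM (70.3 to 141 FPM and 72.9 to 152 FPM). NK and innate lymphoid markers summed to 157 and 180 FPM, rank 6 and 7. The defining NK gene Ncr1 held 0 fragments in cecum, which allows up to 3, and 10 in tumor. Klra4, the B cell gene Ms4a1 and the epithelial gene Krt20 were also at 0 in cecum, and no marker was at 0 in tumor. Among the myeloid genes, Spi1 was higher in Innate-like T#2 than in any other label, at 66.0 and 61.7 FPM, and Lyz2 held 2 and 3 fragments. The part of other cells in the results was not tested.

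Innate-like T#2 was compared with Innate-like T#1 inside each library, so tissue and library were shared by both sides. A gene was called where the labels differed at least 1.5-fold with a 95% interval that left out 0 on the log2 scale, in the same direction in both libraries. A gene needed at least 50 fragments over both labels in each library. Of 14709 such genes, 179 were called higher in Innate-like T#2 (1.22% of the genes tested) and 117 lower (0.795%). With the mean over cells in place of the sum 216 were higher and 257 lower, so the balance of the directions turned. The median log2 ratio over all genes tested was -0.04 in cecum and -0.03 in tumor. Receptors of NK cells, genes of recirculating memory cells and cytokine receptors were among the genes called higher, and Cd7, Klrb1 and Jaml among those called lower.

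Cmklr1 (chr5:113612355-113650475, Entrez gene 14747) is the receptor for the chemoattractant chemerin. Its window held 35.8 FPM in Innate-like T#2 and 5.95 FPM in Innate-like T#1 in cecum, and 64.0 and 12.6 FPM in tumor. The log2 ratio was 2.59 (1.94 to 3.23) in cecum and 2.35 (2.04 to 2.66) in tumor. Cmklr1 was highest in PD1+ CD8 cells in both libraries, and Innate-like T#2 ranked 6 and 3.

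Klrc1 (chr6:129666015-129682852, Entrez gene 16641) encodes NKG2A, an inhibitory receptor that pairs with CD94. It lay at 44.3 FPM in Innate-like T#2 against 14.6 FPM in Innate-like T#1 in cecum, and at 43.1 against 12.6 FPM in tumor (log2 1.60, 1.08 to 2.10, and 1.78, 1.43 to 2.12). Klrb1c, the gene of NK1.1, was called higher (log2 0.74 and 0.68) and was more open in Innate-like T#2 than in any other label, at 24.5 and 24.9 FPM. Klrg1, an inhibitory receptor of effector cells, was called higher as well (log2 1.20 and 0.94), from 13 and 32 fragments. Without the flanks a count of 0 left Klrg1 no direction in cecum. It had no listed start, and within 1 kb of the ends of its span it held 2 against 12 fragments in cecum (log2 0.34, -2.86 to 2.51). Klrb1, another member of the same cluster on chromosome 6, was called lower, with 6.60 against 17.97 FPM in cecum and 5.97 against 19.1 FPM in tumor (log2 -1.45 and -1.68). Within 1 kb of its start Klrb1 held 0 and 1 fragments of Innate-like T#2 and 4 and 2 of Innate-like T#1, too few for a ratio. Klrk1, the gene of the activating receptor NKG2D, had log2 ratios of 0.59 and 0.57 and was not called, since the tumor ratio was just under 1.5-fold. In all, 3 of 14 tested genes in the list of NK-type receptors were called higher and 1 lower, beside 1.22% and 0.795% of all genes tested, with medians of 0.08 in each library.

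Genes tied to memory and to movement through blood and lymph nodes were among those more open in Innate-like T#2. Of 12 genes, 3 were called higher and 0 lower, beside 1.22% and 0.795% of all genes tested, with median log2 ratios of 0.44 in cecum and 0.63 in tumor. Klf2, a transcription factor that keeps T cells in circulation, had 137 against 80.8 FPM in cecum and 129 against 67.9 FPM in tumor (log2 0.76 and 0.93). Il7r, the IL-7 receptor alpha chain of long-lived T cells, had 44.3 against 22.3 FPM and 50.7 against 25.9 FPM (log2 0.99 and 0.97). CCR7+ CD4 and CCR7+ CD8 cells were higher than Innate-like T#2 for Klf2 in both libraries. The chromatin organiser Satb1 (0.54 and 0.58) and the transcription factor Lef1 (0.44 and 0.31) were not called, and Tcf7 was nearly level (-0.00 and -0.08).

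Cd5, a negative regulator of T cell receptor signals, was the gene called higher among 19 genes of receptor and Fc receptor signalling (list medians -0.01 and 0.01, beside 1.22% of all genes tested called higher), with 83.9 against 46.2 FPM in cecum and 79.3 against 44.3 FPM in tumor (log2 0.86 and 0.84). The costimulatory receptor Cd28 (log2 0.80 and 0.96) and the follicle homing receptor Cxcr5 (0.70 and 0.96) were called higher among 11 helper and coreceptor genes, whose medians were 0.14 and 0.22, again beside 1.22% of all genes. The window of Cxcr5 overlaps that of Bcl9l. Cd8a had log2 ratios of -0.30 and -1.17 and was not called.

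Among 15 cytokine receptor genes, Il7r and Il18rap, a chain of the IL-18 receptor, were called higher, the second at log2 0.72 and 1.43. The list medians were -0.10 and -0.03, and 1.22% of all genes were called higher. The IL-33 receptor Il1rl1, kept in the marker list of innate lymphoid cells, was called higher at log2 1.29 and 1.21, in a window that overlaps Il18r1. Il2rb had log2 ratios of 0.30 and 0.42 and was not called. Ifng, the gene of interferon gamma, was the gene called among 14 tested cytotoxic effectors, with 31.1 against 15.1 FPM in cecum and 28.5 against 17.1 FPM in tumor (log2 1.04 and 0.74). The effector list medians were -0.01 and -0.07, again beside 1.22% of all genes called higher. Gzmb (0.60 and 0.52) and Prf1 (0.41 and 0.09), which encode granzyme B and perforin, were not called.

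Runx2 was the transcription factor called higher among 21 tested effector and innate factors, with 345 against 158 FPM in cecum and 372 against 167 FPM in tumor (log2 1.13 and 1.16). That list had medians of 0.12 and 0.14, and 1 of 21 stands beside 1.22% of all genes. Most other labels were at least as open there as Innate-like T#2, which ranked 13 and 14. Within 1 kb of its start Runx2 held 0 fragments of Innate-like T#2 in cecum and 2 in tumor, against 10 and 25 of Innate-like T#1, and there the tumor ratio was -1.59 on the log2 scale (-4.72 to 0.41). Eomes, a T-box factor of memory and NK cells, had log2 ratios of 0.53 and 0.90 and was not called because of the cecum. Ikzf2, Zbtb16, Tbx21, Id2 and Id3 were not called.

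The remaining genes that ranked highest, by the smaller ratio of the libraries, were Slc24a3, a sodium, potassium and calcium exchanger (log2 1.89 and 1.72), Gas7, linked to actin organisation (1.67 and 1.57), Slc35f3, a solute carrier (1.54 and 1.54), Dner, a transmembrane protein with EGF repeats (1.53 and 1.59), Cfap97d2 (2.22 and 1.53) and Smox, the spermine oxidase (1.53 and 1.53). Gas7 was open at 197 FPM in cecum and 230.1 FPM in tumor, higher than in any other label. Dner held 16 fragments in cecum, and within 1 kb of its gene start its ratio turned to -0.40 and -0.76.

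The genes that ranked lowest were ordered in the same way. S1pr3, a receptor for sphingosine 1-phosphate, had 13.2 against 41.5 FPM in cecum and 10.3 against 51.9 FPM in tumor (log2 -1.65 and -2.34). Cd200r2, of the Cd200 receptor family, had 9.43 against 32.6 FPM and 9.95 against 32.7 FPM (log2 -1.79 and -1.72). Adrb1, the beta-1 adrenergic receptor, had 7.54 against 22.6 FPM and 10.3 against 31.9 FPM (log2 -1.58 and -1.64). Cyp2j6, a cytochrome P450 whose window overlaps the similar gene Cyp2j9, had log2 ratios of -1.52 and -2.14. Gcsam (-2.42 and -2.06), Ly6g6g (-2.19, -4.49 to -0.60, and -2.70) and Olfr1260 (-2.96, -8.28 to -0.42, and -2.06) held between 1 and 20 fragments of Innate-like T#2 in each library. Ly6g6g had no listed start, and within 1 kb of the ends of its span it turned to 0.34 in cecum, from 1 against 6 fragments. C130050O18Rik (-1.69 and -2.29) missed the call, since its cecum interval reached 0.24. Of the label markers, Cd7, a surface protein of NK and intraepithelial T cells, was called lower, with 45.3 against 79.6 FPM and 49.1 against 86.0 FPM (log2 -0.81 in each library). Jaml, an adhesion molecule of epithelial T cells, was called lower at -0.95 and -0.90, 1 of 11 genes of gut residency (list medians -0.02 and 0.10), beside 0.795% of all genes called lower. None of 9 inhibitory receptor genes was called (list medians 0.02 and 0.10), a count from which nothing is read at these shares.

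**Figure D2:**
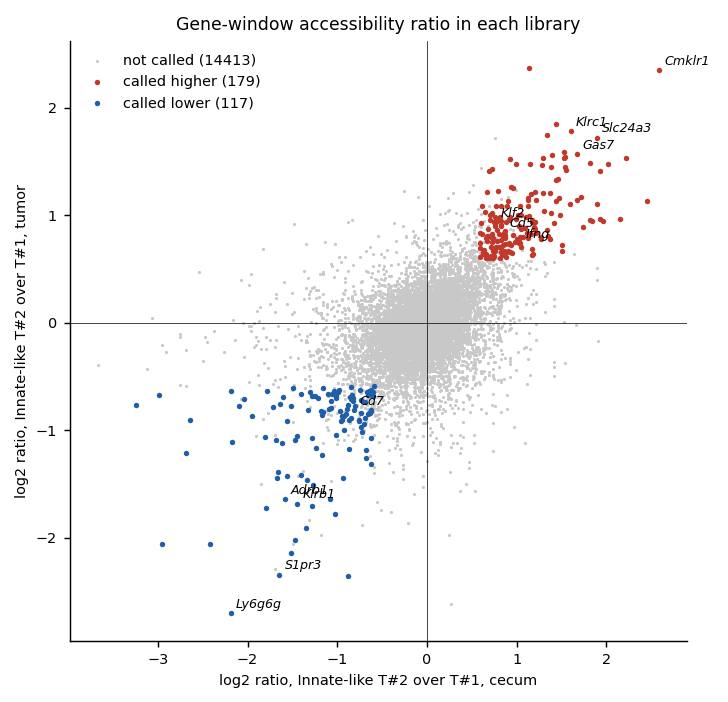
The log2 ratio of gene-window accessibility of Innate-like T#2 over Innate-like T#1 in cecum (horizontal axis) and the tumor (vertical axis), with 1 point for each of 14709 genes. The 179 genes called higher are red and the 117 called lower blue, and the rest lie around 0.

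The bases just before the gene start are shown for 5 called genes whose ratio was also called within 1 kb of the start, and for the marker Fcer1g. They are the 250 bases before each RefSeq start on GRCm38.p6, the assembly behind mm10, read 5′ to 3′ on the gene's strand. The locations are chr5:113643604-113643853, minus strand (Cmklr1), chr6:129678974-129679223, minus strand (Klrc1), chr15:9529877-9530126, minus strand (Il7r), chr19:10738975-10739224, minus strand (Cd5), chr19:56721867-56722116, plus strand (Adrb1) and chr1:171234350-171234599, minus strand (Fcer1g). Capitals mark matches on either strand to TGTGGT (RUNX), TCACAC (T-box), CTTTGA (TCF/LEF) or CCGGAA (ETS).
Cmklr1: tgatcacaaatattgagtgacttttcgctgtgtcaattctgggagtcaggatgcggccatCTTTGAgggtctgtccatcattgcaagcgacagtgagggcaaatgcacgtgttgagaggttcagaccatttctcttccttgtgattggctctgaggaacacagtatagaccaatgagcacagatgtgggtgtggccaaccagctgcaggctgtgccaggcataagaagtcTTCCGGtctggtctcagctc
Klrc1: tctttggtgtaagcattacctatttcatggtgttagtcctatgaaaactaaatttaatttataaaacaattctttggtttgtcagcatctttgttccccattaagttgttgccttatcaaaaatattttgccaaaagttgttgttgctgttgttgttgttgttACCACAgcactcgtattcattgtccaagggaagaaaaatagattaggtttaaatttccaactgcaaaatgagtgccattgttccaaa
Il7r: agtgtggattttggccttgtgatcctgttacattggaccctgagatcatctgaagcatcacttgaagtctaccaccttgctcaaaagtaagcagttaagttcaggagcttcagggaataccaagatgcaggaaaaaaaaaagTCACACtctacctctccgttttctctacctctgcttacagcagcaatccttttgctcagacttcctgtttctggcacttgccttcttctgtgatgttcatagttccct
Cd5: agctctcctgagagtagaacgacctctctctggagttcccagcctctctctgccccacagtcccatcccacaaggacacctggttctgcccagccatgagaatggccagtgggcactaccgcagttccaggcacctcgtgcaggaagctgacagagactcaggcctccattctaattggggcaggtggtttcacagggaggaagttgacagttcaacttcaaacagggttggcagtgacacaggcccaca
Adrb1: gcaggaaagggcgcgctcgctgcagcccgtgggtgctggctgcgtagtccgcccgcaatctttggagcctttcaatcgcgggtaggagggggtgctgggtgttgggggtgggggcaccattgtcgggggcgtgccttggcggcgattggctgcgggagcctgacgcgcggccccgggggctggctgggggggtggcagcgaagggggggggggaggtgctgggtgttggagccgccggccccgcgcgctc
Fcer1g: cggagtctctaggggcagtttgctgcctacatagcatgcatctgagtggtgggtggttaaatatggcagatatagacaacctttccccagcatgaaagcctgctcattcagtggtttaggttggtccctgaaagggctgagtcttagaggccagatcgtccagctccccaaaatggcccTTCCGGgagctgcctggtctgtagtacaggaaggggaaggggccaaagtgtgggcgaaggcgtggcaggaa

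The Klrc1 sequence held 1 RUNX match, with its last base 82 bases before the start, Il7r 1 T-box match and Cmklr1 a TCF/LEF and an ETS match, while Cd5 and Adrb1 held none of these letters. A match is a string of letters and not a binding site. Within 1 kb of the starts, Klrc1 had log2 ratios of 2.30 and 2.19, Cmklr1 3.73 and 1.69, Il7r 1.43 and 1.13, Cd5 1.91 and 1.76, and Adrb1 -2.72 (-5.78 to -0.83, from 2 fragments) and -2.0. Fcer1g had 0.14 and -0.32 there and was not called.

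RefSeq promoters were matched for 17492 of 21887 protein-coding genes. Of the first listed promoters, 12.5% held the RUNX letters, 11.3% the T-box letters, 13.1% the TCF/LEF letters and 15.2% the ETS letters. Among 147 promoters of genes called higher in Innate-like T#2 the shares were 14.3%, 9.52%, 16.3% and 6.12%, and among 87 of genes called lower they were 16.1%, 11.5%, 9.20% and 4.60%. Among the 11780 promoters of all tested genes the shares were 11.1%, 9.21%, 11.2% and 20.4%. The ETS letters were in 9 and 4 promoters of these sets, and no difference in shares was tested.

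Distal chromatin was compared in the same way. The genome was cut into tiles of 500 bp. Tiles over 5 kb from any gene start with at least 20 fragments over both labels in each library were compared. The minimum is a sum, so a tile with few fragments of 1 label entered only through the other. Of 37536 tiles, 833 were called higher in Innate-like T#2 at 2-fold in both libraries (2.22%) and 368 lower (0.980%). With a minimum of 50 fragments 267 were higher and 338 lower, so the balance of the directions turned. The higher tiles lay nearest to 605 genes at a median of 20.1 kb from a start, and 456 lay inside a gene span. Among genes picked after their counts were seen, Gas7 was nearest to 6 of them, and Ifng, Cxcr4, S1pr1 and S1pr4 to 4 each. Other genes were nearest to 4 as well, such as Atp8b4, Chsy1 and Prkch, and Prkch was also nearest to 4 lower tiles. The gene window of S1pr1 was not called between the innate-like groups.

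The tile at chr17:44654501-44655000, inside the span of Runx2, held 30.2 FPM in Innate-like T#2 and 1.98 FPM in Innate-like T#1 in cecum, and 25.2 against 2.24 FPM in tumor (log2 3.93 and 3.49). The mean of the other labels there was 17.2 FPM in cecum and 18.8 FPM in tumor, and PD1+ CD4 cells were highest in tumor at 32.4 FPM. The tile at chr8:72343501-72344000 lay 24.7 kb from the start of Klf2, inside the span of Eps15l1, and held 14.1 against 0.992 FPM and 13.3 against 1.12 FPM (log2 3.83 and 3.57). The tile at chr10:118469001-118469500, in no gene span and 28.2 kb from the start of Ifng, held 17.9 against 0.868 FPM and 15.6 against 1.52 FPM (log2 4.37 and 3.36). It was more open in Innate-like T#2 than in any other label of either library. The other highest-ranked tiles lay inside Ctif (chr18:75489001-75489500, log2 3.48 and 4.18) and inside Il6ra, the gene of the IL-6 receptor (chr3:89872001-89872500, log2 3.31 and 4.19). CCR7+ cells were the most open label at the tile in Il6ra, while Innate-like T#2 was at the tile in Ctif.

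In the other direction, the tile at chr9:66232001-66232500 inside Dapk2, a death-associated kinase gene, held 1 fragment of Innate-like T#2 in cecum and 2 in tumor, against 84 and 137 of Innate-like T#1 (log2 -3.47, -8.79 to -0.95, and -4.05, -7.11 to -2.17). Cytotoxic gdT cells were highest there, at 17.6 and 17.7 FPM. The tile inside Snx29 (chr16:11400001-11400500) held 3.77 against 25.7 FPM and 3.32 against 39.9 FPM (log2 -2.77 and -3.59). Tiles inside Lypd6b (chr2:49825501-49826000) and Gtf2i (chr5:134252001-134252500) and near Engase (chr11:118470001-118470500) held between 1 and 4 fragments of Innate-like T#2. All of these lower tiles met the minimum almost wholly through Innate-like T#1.

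**Figure D3:**
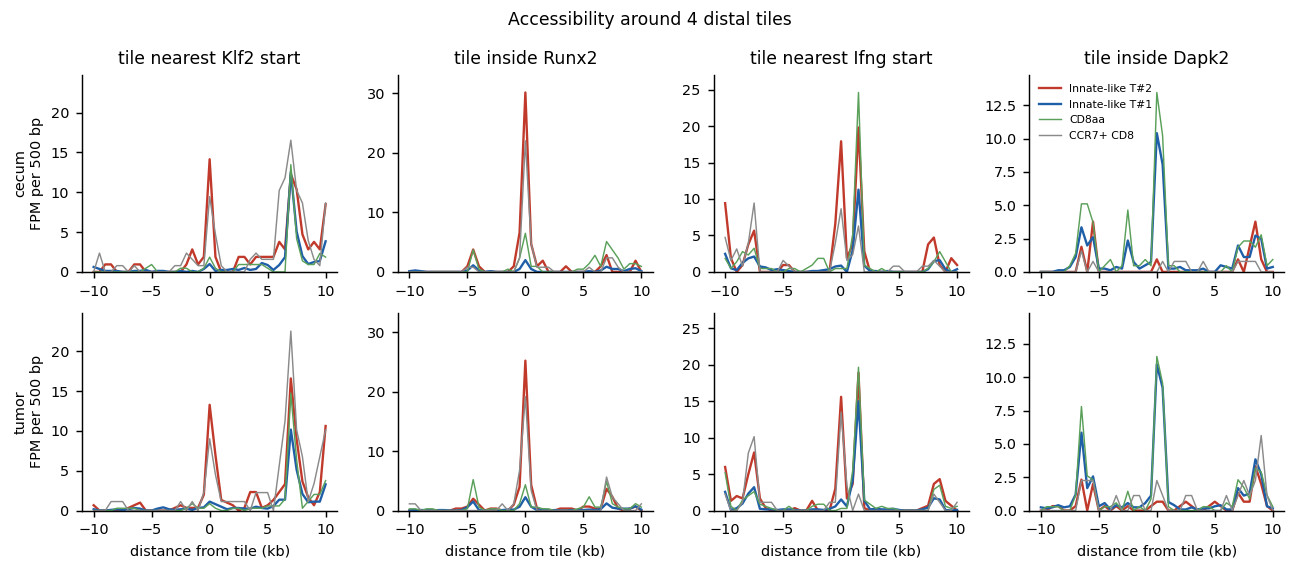
Accessibility in FPM per 500-bp tile within 10 kb of 4 distal tiles, in cecum (top) and tumor (bottom), for Innate-like T#2, Innate-like T#1, CD8aa and CCR7+ CD8 cells. At the central tiles by Klf2, Runx2 and Ifng, Innate-like T#2 reached 13.3 to 30.2 FPM while Innate-like T#1 stayed at 2.24 FPM or below, and at the tile inside Dapk2 the order was the other way round.

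The tiles were then chosen in 1 library and measured in the other, so that the ratio in the measuring library had no part in the choice. A chosen tile was measured only where it also met the minimum, summed over both labels, in the measuring library. A tile with few fragments of 1 label could meet that minimum only through the other label, which can favour the same sign. Of 2017 tiles higher in cecum, 2005 were measured in tumor, and 85.3% had the same sign there, with a median log2 ratio of 0.83. Over all tiles counted, 43.9% had that sign and the median was -0.10. Of 894 tiles lower in cecum, 91.1% had the same sign in tumor, with a median of -0.84, against 56.1% of all tiles. In the other order, 4445 tiles were chosen as higher in tumor and 3971 as lower, of which 2208 and 3028 held enough fragments to be measured in cecum. Of these 86.4% and 79.8% kept their sign, against 47.8% and 52.2% of all tiles, and the medians were 1.03 and -0.70. How far the minimum in the measuring library set these shares was not tested.

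The same tiles gave a score for each cell, the share of its fragments in the higher tiles among those in the higher and lower tiles. It was taken over cells with at least 20 such fragments. In the tumor, 405 Innate-like T#2 cells had a median of 77.3% (quartiles 70.2 and 82.1%) and 1631 Innate-like T#1 cells 45.7% (41.3 and 51.4%). In the cecum, 150 Innate-like T#2 cells had a median of 69.8% (61.2 and 77.1%) and 1204 Innate-like T#1 cells 33.3% (28.03 and 40.0%). Only 4 of the 405 cells in tumor (0.988%) and 1 of the 150 in cecum (0.667%) lay at or below the upper quartile of Innate-like T#1. Nearly all scored Innate-like T#2 cells thus lay above most Innate-like T#1 cells in this pooled score. The tiles were chosen in the other library for a difference between these labels. The score does not show the difference at any single tile, and cells of a library are not replicates.

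The other labels fell on either side. In the tumor, CD8aa cells had a median of 45.2% and Cytotoxic gdT cells 45.0%, close to Innate-like T#1, and Cytotoxic CD8 cells lay between at 56.5%. All other labels had medians of 71.4 to 77.6%, among them CCR7+ CD8 cells at 75.7% and PD1+ CD8 cells at 72.9%, a range that held Innate-like T#2. In the cecum, CD8aa and Cytotoxic gdT cells had 32.2 and 32.5% and Cytotoxic CD8 cells 47.6%, while the other labels with at least 50 cells had 65.3 to 72.7%.

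**Figure D4:**
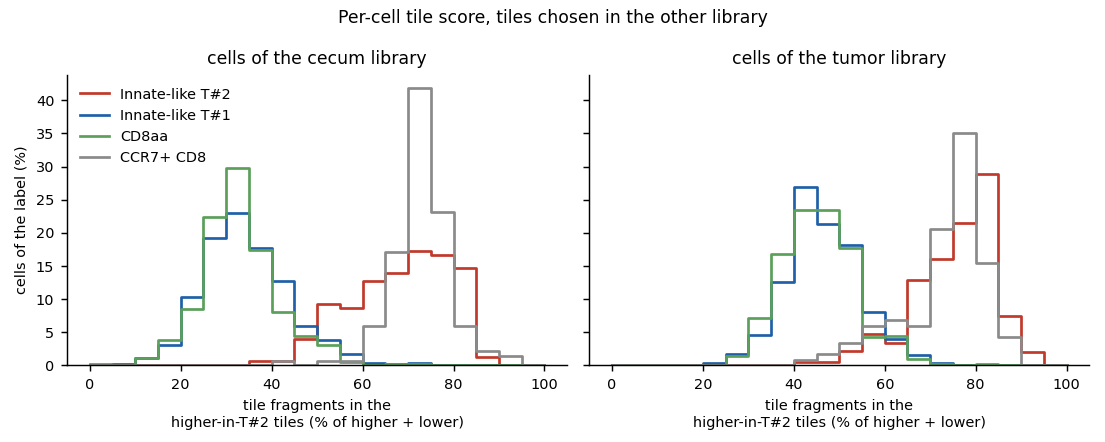
Distribution over cells of the share of fragments in tiles higher in Innate-like T#2, among fragments in higher and lower tiles, with tiles chosen in the other library, as percent of the cells of each label per bin. Innate-like T#2 had medians of 69.8% in cecum and 77.3% in tumor, near CCR7+ CD8 cells and also near most labels not drawn. Innate-like T#1 had 33.3 and 45.7%, near CD8aa cells.

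Innate-like T#2 was next set against the mean of the other labels with at least 50 cells, each weighted equally and Innate-like T#1 included, 15 labels in cecum and 16 in tumor. In each library a gene needed at least 50 fragments of Innate-like T#2, or as many expected from that mean. A gene high in Innate-like T#2 could thus enter through that label alone, and a gene low there through the mean alone. Steap3, Spry2 and Spry4, named below, met the minimum in cecum only through Innate-like T#2. Of 9203 genes, 184 were called higher (2.0%) and 89 lower (0.967%). The highest gene by the smaller ratio of the libraries was Steap3 (chr1:120226414-120271081, Entrez gene 68428), a metalloreductase of iron handling, at 66.0 FPM in cecum and 56.4 FPM in tumor against means of 10.4 and 11.9 FPM (log2 2.66 and 2.25). It was highest in Innate-like T#2 and also called over Innate-like T#1 (log2 1.35 and 0.81). Qrfp (2.38 and 1.75), a neuropeptide gene, and its neighbour Fibcd1 (1.56 and 1.61) were likewise highest in Innate-like T#2, but the windows of Qrfp, Fibcd1 and Abl1 overlap in part.

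Most of the other leading genes were open in Innate-like T#1 as well. Spry2 and Spry4, inhibitors of receptor tyrosine kinase signalling, had 114 and 108 FPM and 99.9 and 82.2 FPM in Innate-like T#2, and 111 and 112 FPM and 72.8 and 84.6 FPM in Innate-like T#1. The means of the other labels were 28.3 and 31.3 FPM for Spry2 and 23.6 and 26.9 FPM for Spry4. Tmem108 (log2 2.31 and 2.01 over the mean), Peli2, a ubiquitin ligase of innate signalling (2.34 and 1.92), Syde2 (2.01 and 2.0), Rbpms, an RNA-binding protein (1.62 and 1.58), and Kifc3, a kinesin (1.74 and 1.44), were not called between the innate-like groups. Syde2 was higher in Innate-like T#1, at 122 and 102 FPM against 81.1 and 67.0 FPM.

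Of 98 listed genes tested against the other labels, 7 were called higher and 6 lower, beside 2.0% and 0.967% of all genes. Among them, Ikzf2, a factor of the Ikaros family (0.73 and 0.59), Eomes (0.71 and 0.92), Cd244a (0.99 and 0.60) and Klre1 (0.91 and 0.65), both NK-type receptors, Crtam, an adhesion receptor of cytotoxic cells (0.84 and 0.99), and the chemokine gene Ccl5 (0.64 and 0.77) were called higher than the mean. None of these named genes was called between the innate-like groups. The window of Klre1 overlaps that of Klrd1. Ikzf2 had no listed start, and within 1 kb of the ends of its span it stood near 0 (-0.03 and -0.06). Called lower were Cd4 (-0.68 and -0.85), the inhibitory receptors Ctla4 (-1.44 and -1.13) and Havcr2 (-0.78 and -0.59), Cd6 (-0.78 and -0.92), and the transcription factors Rora (-0.69 and -0.74) and Bcl11b (-0.75 and -0.61). Many labels behind that mean are CD4 or Treg labels, and their part was not tested. The lowest genes over all were Galnt9 (-2.25 and -2.16), Kcnk5 (-1.93 and -1.62), Plcb4 (-1.56 and -1.53), Ptpn13 (-1.77 and -1.49) and Arnt2 (-1.70 and -1.45), which were low in Innate-like T#1 as well, at 7.56 to 51.5 FPM.

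At single tiles the highest-ranked ratios over the other labels lay inside Rptor (chr11:119871001-119871500), Nav2 (chr7:49093501-49094000), Fndc3b (chr3:27463001-27463500) and Tnip1 (chr11:54936001-54936500) and in no gene span at chr10:118797501-118798000. The tile in Rptor held 18.9 FPM in cecum and 16.9 FPM in tumor, against means of 0.703 and 1.09 FPM (log2 4.75 and 3.95). All 5 were highest in Innate-like T#2 in both libraries, which the choice of the tiles favours.

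Tiles chosen against the other labels in 1 library were summed by label in the other. The 556 tiles higher in cecum held 1.18% of the Innate-like T#2 fragments of the tumor, 0.968% of those of Innate-like T#1 and 0.809% of those of CD8aa cells, the 3 highest labels, and CCR7+ CD8 cells followed at 0.717%. The 2679 tiles higher in tumor held 2.76% of the Innate-like T#2 fragments of the cecum, and Innate-like T#1 (2.13%), CCR7+ CD8 (1.55%) and CD8aa cells (1.47%) came next. The 102 and 913 tiles chosen as lower held 0.170% of the Innate-like T#2 fragments of the tumor and 0.394% of those of the cecum, with Innate-like T#1 at 0.171% and 0.446% and CCR7+ CD8 cells at 0.196% and 0.426%, and Th17 cells (0.543%) and IL10+ Treg cells (1.76%) held the largest.

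Within Innate-like T#2, tumor and cecum were compared directly. Of 13314 genes with at least 50 fragments over both libraries together, 269 were called higher in tumor (2.02%) and 155 lower (1.16%). Each gene had a single ratio. With the mean over cells in place of the sum, and intervals as wide as those of the sums, 1147 were called higher and 777 lower. The median log2 ratio was -0.00.

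Genes were ranked here by the bound of the interval nearest to 0. Among the 8 that ranked highest, all but Mecom met the minimum of fragments through the tumor alone, where they were high. All 8 held 8 fragments or fewer in cecum. They were Mecom (3 fragments in cecum and 48 in tumor, log2 2.49, 0.86 to 4.82), Ccdc184 (4 and 62, 2.45), Blk, a Src-family kinase (4 and 54, 2.25), Pdzrn3 (5 and 65, 2.19), Kcnt1 (5 and 62, 2.13), Fbxw17 (5 and 58, 2.03), Scn3b (8 and 82, 1.85) and Dll1, a Notch ligand (8 and 78, 1.78). The 8 that ranked lowest were Ccdc192 (46 fragments in cecum and 33 in tumor, log2 -1.99), Dgki (32 and 24, -1.92), Pax2 (37 and 33, -1.67), Col17a1 (48 and 46, -1.57), 1700018B08Rik (29 and 32, -1.37), Tmem144 (45 and 59, -1.12), Six4 (30 and 36, -1.24) and Anapc10 (95 and 147, -0.88). With cells of over 3 times the median count left out, 131 of the 269 and 54 of the 155 genes were still called, and Six4 changed sign (0.26).

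Of the 129 listed genes tested, 3 were called higher in tumor and 0 lower, beside 2.02% and 1.16% of all genes. At these shares nothing is read from the count. Cd69, an activation and tissue retention receptor, had 31.1 FPM in cecum and 61.4 FPM in tumor (log2 0.98), Ahr, the aryl hydrocarbon receptor, 37.7 and 56.7 FPM (0.59), and the integrin Itgam, kept in the myeloid marker list, 34.9 and 52.4 FPM (0.59). Within 1 kb of its start the ratio of Itgam was -0.05, from 4 and 11 fragments. In the other 15 labels with at least 50 cells in each library, Cd69 had a median ratio of -0.04 (range -0.29 to 0.57), Ahr -0.10 (-1.95 to 0.30) and Itgam 0.09 (-0.67 to 0.93). Whether the ratio of Innate-like T#2 differed from those of other labels was not tested.

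Of 18098 distal tiles with at least 20 fragments over both libraries together, 494 were called higher in tumor (2.73%) and 334 lower (1.85%). Here too up to 5% of intervals can leave out the true value by counting error alone, and nothing is read from the counts. The tile inside Bcl9l (chr9:44495501-44496000) held 0 fragments in cecum and 32 in tumor, a log2 ratio of 1.91 when 3 fragments stand for 0, with an interval that starts at 1.53. The tile inside Babam2 (chr5:32055501-32056000) held 0 and 27 (1.66 on the same terms, from 1.26). The tiles inside Bcl9l and Babam2 met the minimum only through the tumor, where they were high. The tile at chr14:122058001-122058500 held 2 and 56 (log2 3.30, 1.38 to 6.38), and its tumor fragments alone met the minimum. Lower in tumor were tiles inside Zc3h4 (chr7:16406001-16406500, 20 and 12 fragments, log2 -2.24) and Nrp2 (chr1:62801001-62801500, 14 and 7, -2.51) and at chr10:117918001-117918500 (15 and 8, -2.41).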

How the data were processed

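Nuclei of sorted T cells were processed by the authors with the 10x multiome kit. Per the file headers, the deposited counts of read pairs per unique fragment and barcode were made by the authors with Cell Ranger ARC 2.0.0 on mm10. The files hold 66466111 fragments for the cecum and 96747563 for the tumor. The deposited metadata gives each barcode a library and a cell type label from RNA clustering. RNA was not analysed here. Label numbers are used as deposited.

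A fragment was counted when either end lay in a window, and fragments were summed per label and library (Python 3.11.15, numpy 2.4.6, scipy 1.17.1). Gene windows were RefSeq spans with 5 kb on each side. Where no RefSeq start was listed for a gene, both ends of its span stood as starts. Log2 ratios have exact conditional 95% intervals, or Poisson intervals against the mean of the other labels, and a count of 0 was set to 3. With 1 library per tissue no test was possible and no p-value is given. The counting and intervals were tested on simulated data. No doublet caller was run.

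Named genes were the 8 highest and 8 lowest against Innate-like T#1 and the 10 highest and 5 lowest against the other labels, ranked by whichever library gave the ratio closer to 0, the 8 highest and 8 lowest between tissues, ranked by the interval bound nearest to 0, and listed genes. Tiles were ranked likewise. Members and lists were chosen with earlier results of these data known. Some items are not reported here, though counts over lists include them.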

Additional observations from a re-analysis of the deposited data

Results flagged for a closer look

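For 5 of 14709 genes the ratio of Innate-like T#2 over Innate-like T#1 passed 1.5-fold in opposite directions in cecum and the tumor, with each interval leaving out 0. The difference between the libraries was not tested. The log2 ratio was 1.09 in cecum and -1.12 in tumor for Pde1a, 0.66 and -0.84 for Atg4c, 0.97 and -0.97 for Dgki, 0.89 and -0.80 for Pnmt, and -1.48 and 0.92 for Ccdc184. Dgki and Ccdc184 were also among the genes named for their difference between the tissues within Innate-like T#2.

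The same held for 11 of 37536 distal tiles at 2-fold, also untested. On chromosome 1 the tiles from 13616001 (-2.85 in cecum and 1.07 in tumor), 85763501 (1.40 and -2.20) and 180429001 (1.68 and -1.17) were of this kind. On chromosome 7 they were the tiles from 16406001 (1.08 and -1.34) and 58712001 (1.60 and -1.22), and on chromosome 13 those from 28417001 (1.12 and -1.47) and 112472501 (1.60 and -2.86). The others began at 9983001 on chromosome 3 (1.07 and -1.36), 76483001 on chromosome 11 (1.29 and -1.19), 96778001 on chromosome 15 (1.26 and -1.02) and 83647001 on chromosome 17 (1.20 and -1.73).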

How the results depend on the processing

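No paired analysis was possible because each tissue has 1 library and no replicate. Of the alternatives for results that answer a comparison, 70 stayed near the reported value and 46 moved. Some alternatives let fewer features or cells enter, and the cause of the moves was not tested. Innate-like T#2 in cecum has 165 cells, which limits the precision there.

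The share of Innate-like T#2 among labels other than Treg and CD4 was 4.04% in cecum and 8.09% in tumor. Against Innate-like T#1, genes called higher and lower numbered 77 and 56 within 1 kb of gene starts, 100 and 71 with a minimum of 200 fragments, and 95 and 53 with labels thinned to equal fragments. With the mean over cells 257 were lower and 216 higher, so that 45.7% of calls were higher against 60.5%, and with a pseudocount of 5 FPM 54 were lower. Against the other labels, the numbers were 102 and 50 with cells of over 3 times the median count left out, 20 and 0 within 1 kb of starts, 481 and 333 with no minimum, and 24 and 8 with a minimum of 200. Between tumor and cecum they were 1147 and 777 with the mean over cells, 106 and 78 with a pseudocount of 5 FPM, and 52 and 21 with a minimum of 200, and 269 were lower with no minimum.

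Distal tiles called higher and lower than in Innate-like T#1 numbered 457 and 196 without the cells of high count, 107 and 43 at 4-fold, and 417 and 175 over 20 kb from a start. With a pseudocount of 1 FPM 235 were lower. With a minimum of 50 fragments 267 were higher and 338 lower, so the balance of the directions depends on that minimum. Tiles chosen as higher in cecum kept their sign in tumor in 87.4% without cells of high count, 89.7% with a minimum of 50, 90.1% at 4-fold and 90.7% with a pseudocount of 1 FPM. For tiles lower in cecum the share was 94.5% over 20 kb from a start and 82.0% with the pseudocount. For tiles higher in tumor it was 93.98% with a minimum of 50, 98.7% at 4-fold and 92.2% with the pseudocount, and for tiles lower in tumor 81.3% without cells of high count, 77.7% when scaled by fragments near starts, 88.3% with a minimum of 50 and 90.0% with the pseudocount.

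Direction turned within 1 kb of gene starts, often on few fragments. Against Innate-like T#1 this held for Dner (-0.40 and -0.76), and in cecum for Ly6g6g (0.34), Gpr183 (-0.45), Nrp1 (-0.53) and Pdgfrb (0.60), and in tumor for Runx2 (-1.59). Against the other labels it held for Ikzf2 (-0.03 and -0.06), Bcl11b in tumor (0.04), and Il10rb (-0.07) and Themis (0.04) in cecum. Ly6g6g, Pdgfrb, Ikzf2 and Il10rb had no listed start. Their windows lay at both ends of the gene, so their turn cannot be placed at a start. Between tissues it held for Itgam (-0.05). For 9 further values a count of 0 left only a bound with no direction, and none is given. Nor is a ratio given where both counts were 3 or fewer, as for Klrb1 in tumor within 1 kb of its start. Cd200 turned in cecum with the mean over cells (0.02), and Six4 turned without cells of high count (0.26).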

Other observations

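The genes here were chosen after their values were seen. Of 16 chemokine receptor genes tested, 5 were called higher in Innate-like T#2 than in Innate-like T#1 and 0 lower, beside 1.22% of all genes called higher. Beside Cxcr5 they were Cxcr4 (log2 1.17 in cecum and 0.69 in tumor), Ccr4 (1.21 and 1.14), Ccr6 (1.34 and 0.86) and Ccr8 (0.93 and 1.52). Other genes called higher were Gpr183, an oxysterol receptor (0.67 and 0.62), the hyaluronan receptor Cd44 (0.74 and 0.67), the integrin Itgax (1.05 and 0.71), Nrp1 (0.82 and 1.09), S100a4 (1.67 and 1.14) and Adgre5 (1.01 and 1.0). In cecum Gpr183 (-0.45) and Nrp1 (-0.53) turned within 1 kb of their starts. The receptors Fas (1.20 and 1.22), Il6ra (1.38 and 1.45), Il10ra (1.16 and 1.20), Il20ra (0.81 and 0.60) and Tnfrsf19 (1.55 and 1.42) and the kinase Sgk1 (0.75 and 0.94) were called higher as well.

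Some kinase genes were picked in the same way, with no count made over all kinases. Lyn (log2 1.44 and 1.16), Tec (0.98 and 0.77), Txk (0.74 and 0.68), Abl1 (0.81 and 0.77) and the receptor kinase Kit (1.59 and 0.89) were called higher in Innate-like T#2 than in the mean of the other labels. The windows of Tec and Txk overlap. Kit (-0.62 and -1.07) was nevertheless called lower than in Innate-like T#1, as was Blk (-2.64 and -0.90). Kit lay at 122 and 82.2 FPM in Innate-like T#2 and 187 and 173 FPM in Innate-like T#1, the highest label in each library.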
